A study of Mus musculus with 79 samples.

Results

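Srp54a, Srp54b and Srp54c are the 3 gene copies that encode the Srp54 subunit of the mouse signal recognition particle, and they were the only 3 of 55471 counted genes whose symbol starts with Srp54. The copies were chosen by the measured CPM of Srp54a, which had already been seen at a low or a high level in different mice of these data, so their levels and how these vary from mouse to mouse are described without a test. The libraries came from the medial prefrontal cortex (mPFC) and the ventral hippocampus (vHipp) of 40 male, wild-type CD-1 mice, an outbred stock, aged 9 to 10 weeks. CSDS mice went through 21 days of chronic social defeat stress and CTRL mice did not, and each mouse then received a single intraperitoneal injection of saline or of (R,S)-ketamine at 10 mg/kg, with tissue taken 7 days later. The mice lived in housing groups of 4, and stress was given to whole housing groups. The labels name neither the housing group nor the social rank of a mouse. Each of the 4 groups (CTRL saline, CTRL ketamine, CSDS saline, CSDS ketamine) held 10 mice in each region, except for the mPFC of CSDS ketamine mice with 9 libraries, since the mPFC of mouse 5 was not analysed here. This gave 39 mPFC and 40 vHipp libraries of 11726129 to 41767119 counts each, with a median of 19638060. Markers separated the regions, as the summed level of 4 cortical genes was 245.0 to 415.6 counts scaled to the library total (counts per 1000000, CPM) in the mPFC and 47.98 to 146.7 CPM in the vHipp, and that of 4 hippocampal genes was 141.6 to 341.6 CPM and 710.8 to 1307 CPM.

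The signal recognition particle is a complex of proteins and the 7SL RNA that meets ribosomes making secreted and membrane proteins. Its Srp54 subunit, a GTPase, binds the signal sequence as it leaves the ribosome and then docks with the receptor on the endoplasmic reticulum, where the chain is passed to the Sec61 channel. In brain tissue this route serves neuropeptides, ion channels and receptors of the cell surface.

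All 3 copies lie in the same orientation on the plus strand of chromosome 12 (GRCm38). Srp54a (ENSMUSG00000073079, chr12:55080262-55115367) comes first, Srp54b (ENSMUSG00000112449, chr12:55155104-55189573) follows after 39.7 kb and Srp54c (ENSMUSG00000079108, chr12:55230168-55263836) after a further 40.6 kb. Each spans 33.7 to 35.1 kb and is annotated as protein coding. The counts of each gene cover its exons, of 5325, 4513 and 3642 bases in that order.

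The sequences of the copies decide which reads can be told apart. The coding sequences, of 1515 bases in each transcript, were identical between Srp54a and Srp54b, with 0 differing bases. Srp54c differed from both at 6 positions, counted from the first base of the start codon (501, 945, 946, 965, 1197 and 1249), which left 99.6% identity. A stretch that starts at coding base 880 and is as long as a sequencing read is shown because it holds 3 of these 6 positions, which are in capitals. It was taken from the GENCODE release 21 transcripts, and the line of Srp54a is also the sequence of Srp54b.
Srp54a: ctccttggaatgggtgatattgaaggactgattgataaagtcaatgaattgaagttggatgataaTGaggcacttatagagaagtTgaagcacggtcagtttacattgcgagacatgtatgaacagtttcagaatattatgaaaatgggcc
Srp54c: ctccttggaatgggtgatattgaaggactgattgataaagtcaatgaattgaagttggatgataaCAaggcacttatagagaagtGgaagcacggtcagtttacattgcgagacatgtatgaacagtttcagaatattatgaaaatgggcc

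Every window of read length in each annotated transcript was looked up in all annotated transcripts. Of the 4348 windows of Srp54a, 1286 (29.6%) occurred in no other gene. They were 354 of the 357 windows wholly before the coding sequence, 858 of the 2326 windows wholly after it, at the far end, and windows that run across the start codon, while none of the 1365 windows wholly within the coding sequence was its own. Of the 3492 windows of Srp54c, 525 (15.0%) were its own, and all of these were coding. Srp54b had own windows for 3.1% of 3496, all after the coding sequence. No window of any copy was found in a gene outside the 3. The annotated end of Srp54a runs further than those of the other copies, so the 858 own windows there depend on where its transcript is annotated to end. How the authors' counting treated reads that match several copies is not given in the sources used here, so the split of reads among the copies is uncertain for all values that follow.

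**Figure D1:**
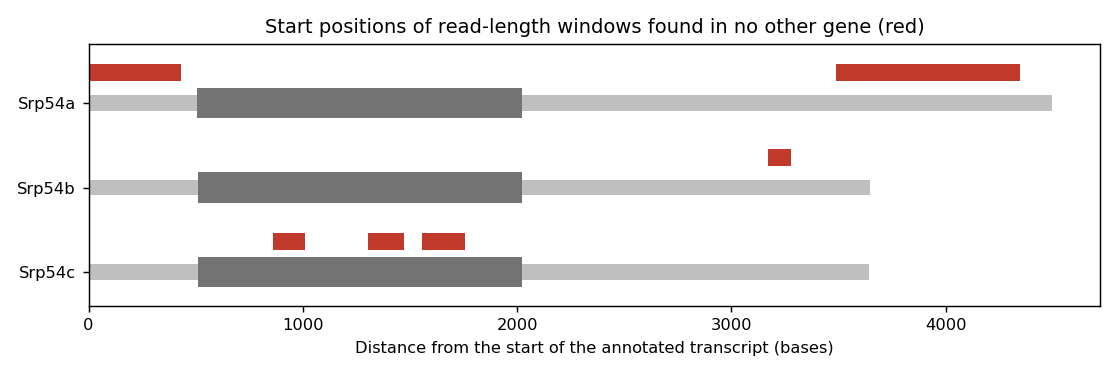
Each grey bar is an annotated transcript of one copy, with bases from its start on the x axis and the coding sequence as the thicker dark part. Red bars mark where windows of read length start that are found in no other gene, which are 29.6% of the windows of Srp54a (none wholly within the coding sequence), 3.1% for Srp54b and 15.0% for Srp54c (all coding).

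Srp54c carried most of the signal, Srp54a a small and uneven part, and Srp54b almost none. On the scale of CPM with TMM factors, Srp54c had a mean of 17.3 ± 1.53 CPM in the mPFC (SD, n = 39) and 16.8 ± 2.05 CPM in the vHipp (SD, n = 40). The means of Srp54a were 2.16 ± 1.37 CPM in the mPFC and 1.93 ± 1.3 CPM in the vHipp. For Srp54b they were 0.0115 ± 0.0301 CPM and 0.008 ± 0.0203 CPM.

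Per kilobase of exon, the level of Srp54c was 4.75 CPM in the mPFC and 4.62 CPM in the vHipp, against 0.406 and 0.363 CPM for Srp54a, a ratio of 11.7 and 12.7. Per 1000 own windows the levels were 33.0 and 32.0 CPM for Srp54c and 1.68 and 1.5 CPM for Srp54a, a ratio of 19.6 and 21.3. Both scales therefore put the copies in the same order, although the size of the gap between them depends on which reads were counted.

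Srp54b was at 0 counts in 32 of 39 mPFC and 34 of 40 vHipp libraries. A count of 0 allows up to 3 counts, or 0.087 to 0.256 CPM in an mPFC library and 0.0718 to 0.255 CPM in a vHipp library, by counting error only. All mPFC libraries together held 9 Srp54b counts and all vHipp libraries 6, and the highest count of any library was 3, in the mPFC of mouse 6. Of its 3496 windows, 2957 also occurred in Srp54a and 2862 in Srp54c. These values therefore do not separate a silent gene from reads given to another copy or left uncounted.

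Srp54a fell on either side of an empty interval in both regions. In the mPFC, 10 mice had 0.155 to 0.519 CPM (median 0.341) and the other 29 had 1.62 to 5.1 CPM (median 2.44). In the vHipp, 11 mice had 0.16 to 0.543 CPM (median 0.309) and 29 had 1.23 to 4.67 CPM (median 2.2). The median of the higher mice was thus 7.15 times that of the lower mice in the mPFC and 7.11 times in the vHipp.

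The interval itself was the largest distance between neighbouring log2 CPM values with at least 3 mice on each side, where a prior of 0.5 counts was added before the log, so that its width is a little below the ratio of the CPM values. It was 3.01-fold wide in the mPFC, between mouse 7 (10 counts, 0.519 CPM, exact Poisson 95% interval 0.249 to 0.955) and mouse 18 (31 counts, 1.62 CPM, 1.1 to 2.3). In the vHipp it was 2.23-fold wide, between mouse 39 (14 counts, 0.543 CPM, 0.297 to 0.911) and mouse 9 (22 counts, 1.23 CPM, 0.77 to 1.86). The counting intervals of the edge mice were apart in the mPFC and overlapped in the vHipp, and they cover counting error only. Below the interval Srp54a rested on 3 to 10 counts a library in the mPFC and 3 to 14 in the vHipp, and above it on at least 22 in each region. Among 15171 genes with a mean of at least 1 CPM in both regions, 16 genes (0.105%), Srp54a included, had an interval at least as wide in the mPFC and 19 (0.125%) in the vHipp, and the median gene had one of 0.069 and 0.08 on the log2 scale against 1.59 and 1.16 for Srp54a.

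**Figure D2:**
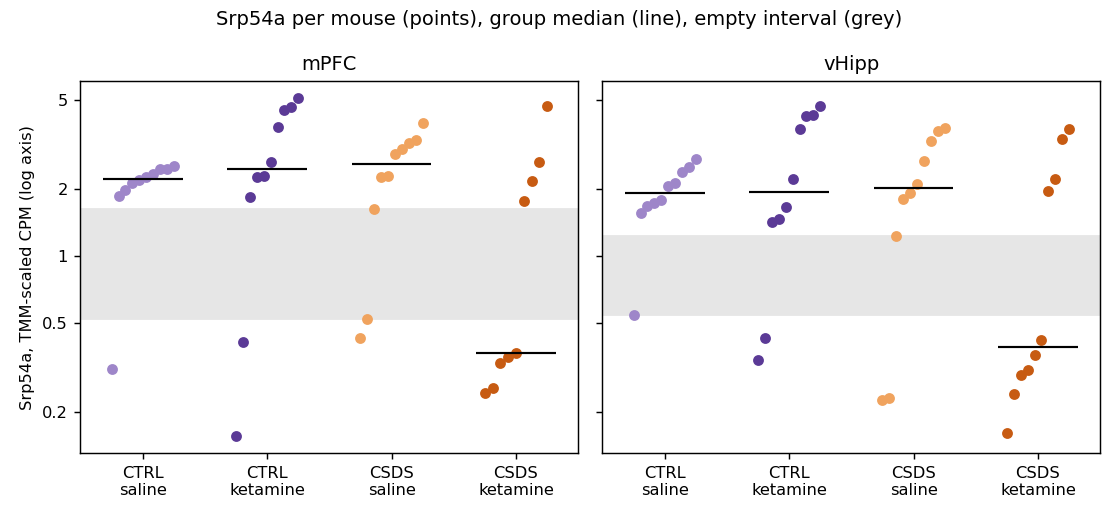
Points are the Srp54a levels of single mice in TMM-scaled CPM on a log axis, by group and region, with the group median as a line and the empty interval in grey. Both levels occur in every group, with 1 low mouse in CTRL saline and 5 (mPFC) or 6 (vHipp) in CSDS ketamine.

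The side a mouse took was the same in both regions. Of the 39 mice with both libraries, 10 were below the interval in both, 29 were above it in both, and 0 were below in only 1 region. The 11th low mouse in the vHipp was mouse 5, at 0.293 CPM, which had no mPFC library here. Over these 39 mice the Spearman correlation of Srp54a between the regions was 0.86 (jackknife SE 0.051), a description over points that share the mouse. The median over the 15171 genes was 0.264, and 32 genes (0.211%) had a correlation at least as high as that of Srp54a, itself included.

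The agreement between the regions did not rest on the low mice alone. Among the 29 mice above the interval the correlation was 0.709 (SE 0.119). Of the 9 highest mice in each region, a number taken after the values were seen, 8 were shared, and mouse 25 (5.1 CPM in the mPFC, 4.27 CPM in the vHipp), mouse 37 (4.65 and 4.24 CPM) and mouse 21 (4.51 and 4.67 CPM) were among the highest of both. Within the 10 low mice it was -0.236 (SE 0.382), at counts too few to order the mice.

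**Figure D3:**
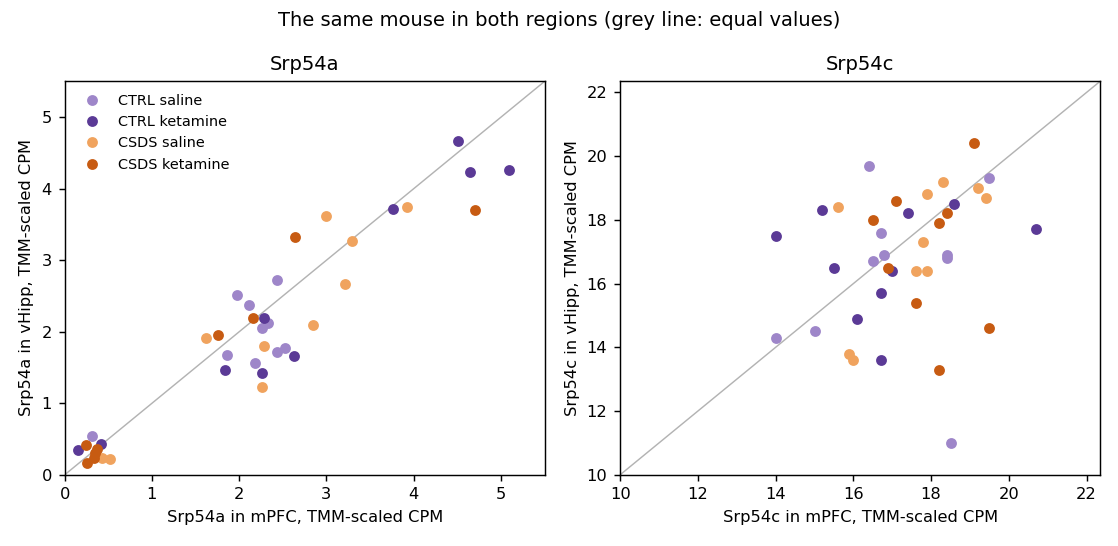
Each point is a mouse with both libraries, with its TMM-scaled CPM in the mPFC on the x axis and in the vHipp on the y axis, for Srp54a (left) and Srp54c (right, axes from 10 CPM), coloured by group. For Srp54a 10 mice form a cluster near the origin and the others spread along the line of equal values (rho 0.86), whereas Srp54c forms a single cloud (rho 0.325).

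Srp54c had no such levels. Its lowest and highest mice were 1.48-fold apart in the mPFC (14.0 to 20.7 CPM) and 1.85-fold apart in the vHipp (11.0 to 20.4 CPM), against 32.9-fold and 29.1-fold for Srp54a. Its widest interval with 3 mice on each side was 0.04 and 0.06 on the log2 scale, and 12891 and 10045 of the 15171 genes had one at least as wide. Its correlation between the regions was 0.325 (SE 0.163, n = 39), a value that 40.6% of genes reached. For Srp54b the correlation was -0.178, but no mouse had Srp54b counts in both regions, so this value reflects single counts that never fell in the same mouse.

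Across mice, Srp54a and Srp54c neither traded off nor moved together by an amount that stood out from its error. Their Spearman correlation was -0.109 in the mPFC (SE 0.187, n = 39) and 0.189 in the vHipp (SE 0.15, n = 40), and so differed in sign between the regions. Without the 2 mice farthest from the median of Srp54a it was -0.278 (SE 0.169) and 0.144 (SE 0.161). Within the mice above the interval it was 0.085 and 0.221, and within those below it -0.115 and -0.345. The values of a library share its depth and its scaling factor. With Srp54b, Srp54a had correlations of 0.184 and -0.034, and Srp54c of -0.169 and 0.018.

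The levels of Srp54c overlapped between the low and the high Srp54a mice. In the mPFC, Srp54c ran from 16.1 through a median of 17.6 to 19.5 CPM in the 10 low mice and from 14.0 through 16.8 to 20.7 CPM in the other 29. In the vHipp it ran from 14.6 through 16.5 to 18.7 CPM in the 11 low mice and from 11.0 through 17.5 to 20.4 CPM in the others. The difference of medians, high minus low mice, was thus -0.803 CPM in the mPFC and 0.999 CPM in the vHipp, of opposite sign, while that of Srp54a was 2.1 and 1.89 CPM.

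The sum of the 3 copies carried the difference in Srp54a. It was 16.5 to 19.9 CPM (median 18.0) in the low mice of the mPFC and 16.1 to 25.8 CPM (median 19.9) in the others, and 15.1 to 19.0 CPM (median 16.8) against 12.7 to 24.1 CPM (median 19.6) in the vHipp. The ranges overlapped in both regions, with medians 1.87 and 2.85 CPM higher in the high mice. Srp54a made up a median of 1.94% of this sum in the low mice and 12.8% in the high mice of the mPFC, and 1.84% and 13.2% in the vHipp, with at most 23.4% and 21.6% in any mouse. The coefficient of variation of the sum over mice was 10.2% and 14.0%, close to that of Srp54c alone (8.83% and 12.2%) and to the median gene (11.8% and 13.8%), and far below that of Srp54a (63.3% and 67.5%).

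**Figure D4:**
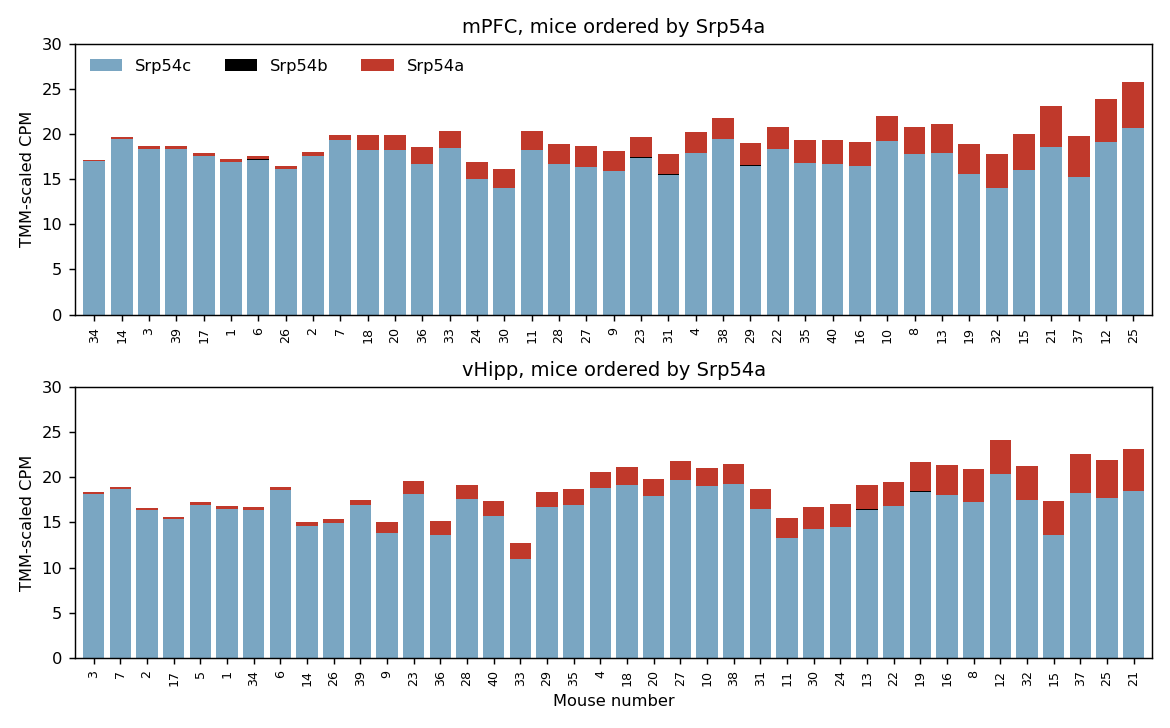
Each bar is a mouse, ordered from left to right by its Srp54a level, with the TMM-scaled CPM of Srp54c (blue), Srp54b (black, barely visible) and Srp54a (red) stacked. The red part is thin in the first 10 (mPFC) or 11 (vHipp) mice, and the blue part has overlapping ranges in low and high mice, with a median of 17.6 against 16.8 CPM in the mPFC and 16.5 against 17.5 CPM in the vHipp.

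The marker genes of 11 cell types and tissues, fixed as lists, were set beside these levels. Each list had all its genes detected. For Srp54a their summed levels gave correlations of -0.288 to 0.165 in the mPFC and -0.196 to 0.137 in the vHipp, and each list overlapped between low and high mice, for example 3510 to 5480 CPM against 3160 to 5960 CPM for 3 neuronal genes in the vHipp. The medians were farthest apart for 3 oligodendrocyte genes in the mPFC, at 2068 CPM in the low mice (428 to 4800 CPM), 2.0 times the median of the high mice (470 to 4730 CPM), and their part in the level of Srp54a was not tested. For Srp54c in the vHipp the correlation was 0.646 with the list of 3 general neuronal genes but 0.148 with the excitatory and -0.061 with the inhibitory neuron list, and it was -0.484 with the endothelial, -0.463 with the astrocyte and -0.456 with the erythroid list, and in the mPFC all 11 lay between -0.341 and 0.204. The part of these in the level of Srp54c was not tested. In bulk tissue, fewer cells of a type and less RNA per cell cannot be told apart.

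The groups were compared next, to ask whether stress or ketamine moved the copies. Srp54a in the mPFC ran from 0.31 to 2.53 CPM in CTRL saline mice (median 2.22), from 0.155 to 5.1 CPM in CTRL ketamine mice (2.46) and from 0.427 to 3.93 CPM in CSDS saline mice (2.57). In CSDS ketamine mice it ran from 0.243 to 4.71 CPM with a median of 0.367. The ranges of all 4 groups overlapped, and the low median of the last group goes with 5 of its 9 mice being below the interval.

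In the vHipp the order of the medians was the same, with CSDS saline at 2.01 CPM (0.227 to 3.75), CTRL ketamine at 1.93 CPM (0.343 to 4.67), CTRL saline at 1.92 CPM (0.543 to 2.73) and CSDS ketamine at 0.389 CPM (0.16 to 3.7). The first 3 medians lay closer together than the spread within any of these groups. The low mice were mouse 39 in CTRL saline, mice 26 and 34 in CTRL ketamine, mice 2 and 7 in CSDS saline, and mice 1, 3, 6, 14 and 17 in CSDS ketamine, with mouse 5 added in the vHipp. By stress, 3 of 20 CTRL mice were low in each region, against 7 of 19 CSDS mice in the mPFC, and the vHipp had 8 low mice of 20. Among CSDS mice, 6 of the 8 numbered 1 to 8 were low in the vHipp and 2 of the 12 numbered 9 to 20, a split made after the values were seen. What the mouse numbers stand for is not stated in the labels. With a covariate for sets of mouse numbers, in which 4 consecutive CSDS mice shared a set with 4 consecutive CTRL mice, the stress difference of Srp54a under ketamine was -1.12 (SE 0.48) in the mPFC and -1.04 (SE 0.49) in the vHipp on the log2 scale, and was not called by edgeR (adjusted p = 0.5624 and 0.7903).

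No comparison of groups called Srp54a or Srp54c by the edgeR quasi-likelihood test, in which no gene, of 28993 tested in mPFC and 28991 tested in vHipp (0% called in each of the 5 comparisons of each region) had an adjusted p under 0.05. DESeq2 called 0 genes as well. The comparisons share groups, so their values are not independent. For CSDS against CTRL mice given ketamine, Srp54a had a log2 fold change of -0.93 (SE 0.46) in the mPFC, with an unadjusted p of 0.04995 and an adjusted p of 0.8303 by edgeR, where 1681 genes (5.8%) had an unadjusted p under 0.05 by edgeR and 1316 by DESeq2. In the vHipp it was -0.91 (SE 0.47), with an unadjusted p of 0.05963 and an adjusted p of 0.8957 by edgeR, and 1572 (5.42%) and 1302 genes were below that unadjusted limit. The unadjusted p of Srp54a lay on either side of 0.05 depending on the fit, being 0.06337 in the mPFC and 0.08172 in the vHipp by DESeq2, 0.05405 and 0.06927 by edgeR after filterByExpr, and 0.02446 and 0.04094 by edgeR with the covariate for these sets.

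In mice given saline, the stress difference of Srp54a was 0.18 (SE 0.44) in the mPFC and 0.10 (SE 0.46) in the vHipp on the log2 scale. Ketamine against saline gave 0.44 (SE 0.43) and 0.37 (SE 0.45) in CTRL mice and -0.68 (SE 0.47) and -0.63 (SE 0.48) in the CSDS mice. The stress by ketamine interaction was -1.11 (SE 0.64) in the mPFC and -1.0 (SE 0.66) in the vHipp, with adjusted p of 0.8976 and 0.9999 by edgeR. The standard errors of Srp54a were several times those of Srp54c, whose 10 log2 fold changes lay between -0.05 and 0.09 with SE of 0.060 to 0.12. In the other 8 comparisons, 823 to 1615 genes had an unadjusted p under 0.05 by edgeR and 521 to 1332 by DESeq2.

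The group means of Srp54c lay close together. In the mPFC they were 17.0 ± 1.71 CPM in CTRL saline, 16.8 ± 1.86 in CTRL ketamine, 17.6 ± 1.34 in CSDS saline (SD, n = 10 each) and 17.9 ± 0.999 CPM in CSDS ketamine mice (SD, n = 9). In the vHipp they were 16.4 ± 2.55, 16.7 ± 1.63, 17.2 ± 2.08 and 17.0 ± 2.1 CPM in the same order (SD, n = 10 each). All neighbouring groups differed by less than their SD. Srp54b had 0 to 4 counts in total in each group and did not pass the filter on low counts within either region. With no filter it was not called by edgeR in any of the 10 comparisons (adjusted p of 0.7673 to 1), the lowest unadjusted p being 0.02934, for 3 counts in CSDS saline against 0 in CTRL saline mice of the vHipp.

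Between the regions, 15415 of 31534 genes (48.9%) were called by edgeR, and 0 of the 3 copies were among them. The log2 difference, mPFC minus vHipp, was 0.10 (SE 0.24, adjusted p = 0.7834) for Srp54a and -0.0045 (SE 0.036, adjusted p = 0.9558) for Srp54c. For Srp54b it was 0.44 (SE 0.28, adjusted p = 0.2732), from 9 and 6 counts. With so few counts the error of Srp54b depends on the fit, as DESeq2 gave 0.28 (SE 1.1) and edgeR with the mouse as a replicate block gave 0.41 (SE 0.54, adjusted p = 0.5887). That block pairs the libraries of a mouse, which the main fit does not. With it Srp54a had a smaller error, at 0.09 (SE 0.063, adjusted p = 0.2292 by edgeR).

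The other parts of the particle and its route were taken as lists of 27 genes, of which 17 were called between the regions by edgeR, 14 lower in the mPFC (24.4% of all genes were) and 3 higher (24.5% of all genes were). The share of all genes depends on the filter. After filterByExpr, which drops more genes of low counts, 12481 of 18973 genes were called, 6443 lower and 6038 higher in the mPFC. The median log2 difference of the 27 was -0.12, against 0.0 for all genes. Of the particle's own genes, Srp9 and Srp14, whose pair holds back elongation, were lower, with log2 differences of -0.25 (SE 0.033) and -0.26 (SE 0.031), as was Srp72, which binds the RNA together with Srp68, with -0.29 (SE 0.022). Srp19, which helps load Srp54 onto the RNA, gave -0.04 (SE 0.028) and Srp68 0.04 (SE 0.023), and neither passed the test. The RNA genes Rn7s1 and Rn7s2 were near 0 (at most 0.123 CPM on average) in these libraries of polyadenylated RNA and were not called.

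Both receptor subunits were lower in the mPFC, Srpr with -0.24 (SE 0.023) and Srprb with -0.12 (SE 0.023). Of 16 genes of the Sec61 channel, its partners and signal peptidase, 7 were lower, such as Sec11c, a catalytic subunit of signal peptidase (-0.37, SE 0.027) and Sec61b, a small channel subunit (-0.25, SE 0.044). Higher were Spcs3, an accessory subunit of signal peptidase (0.51, SE 0.028), Sec62, which serves short precursors (0.15, SE 0.029), and Ssr1 of the translocon-associated complex (0.09, SE 0.024). The channel subunits Sec61a1 and Sec61a2 gave 0.01 each and did not pass. Naca and Btf3, which form the nascent chain complex that competes with the particle at the ribosome, were lower, with -0.08 (SE 0.025) and -0.26 (SE 0.029). The cell makeup of the regions differs, and its part in these differences was not tested.

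**Figure D5:**
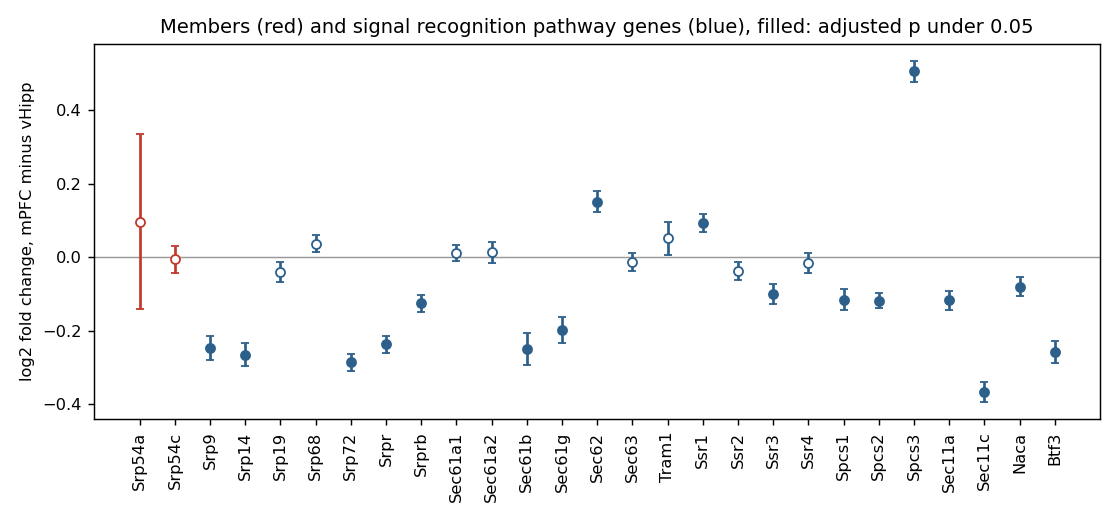
Points are log2 fold changes, mPFC minus vHipp, with their standard errors as bars, for Srp54a and Srp54c (red) and 25 genes of the particle and its route (blue), and filled points had an adjusted p under 0.05 by edgeR. Both Srp54 copies are open, and Srp54a has the widest bar (SE 0.24), in a fit that does not pair the libraries of a mouse.

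Within the regions, 0 of the 27 were called by edgeR in any comparison of stress or ketamine, and 0 to 2 of them had an unadjusted p under 0.05. Per kilobase of exon, the sum of the Srp54 copies was 5.16 CPM in the mPFC and 4.98 CPM in the vHipp. Srp9 was near it (3.89 and 4.47 CPM) and Srp19 a little above (7.29 and 7.25 CPM), while Srp72 (15.0 and 17.7 CPM), Srp68 (22.9 and 21.6 CPM) and Srp14 (47.0 and 54.7 CPM) were higher. Across mice, the 25 of these genes with at least 1 CPM had correlations with Srp54a of -0.429 to 0.337 in the mPFC and -0.149 to 0.356 in the vHipp.

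The genes around the copies with at least 1 CPM did not follow Srp54a closely in both regions. Of 65 genes within 1 Mb on either side, 13 had at least 1 CPM on average in both regions, and 7 of the 13 correlated with Srp54a with the same sign in both. The closest in both was Ralgapa1, which encodes a subunit of a GTPase activator for Ral (0.382 in the mPFC and 0.226 in the vHipp). Egln3, an oxygen-sensing prolyl hydroxylase, had 0.467 in the mPFC but -0.076 in the vHipp. Fam177a and 1700047I17Rik2, which lie between the copies, were listed at 0.0035 CPM or less on average. With Srp54c, 11 of the 13 had the same sign in both regions, and the range was -0.509 (Nfkbia, vHipp) to 0.644 (Snx6, vHipp), where Snx6 had -0.112 in the mPFC.

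Likeness was taken as the smaller of the correlations in the mPFC and the vHipp where both had the same sign, among the 15171 genes. Those most like Srp54a were Sptlc2, a subunit of serine palmitoyltransferase (0.451 in the mPFC and 0.402 in the vHipp), Atp8a2, a phospholipid flippase (0.408 and 0.395), Dchs2, Sod2, the mitochondrial superoxide dismutase, and Atg2b. The most opposite were Tbx1 (-0.449 and -0.503), Tmco6, Frmd6, Rgs9 and Gm20033. All of these were weaker than the correlation of Srp54a with itself between the regions. For Srp54c the closest were Slc4a1ap (0.547 and 0.587), Eif2s2, a subunit of a translation initiation factor (0.538 and 0.734), and the chaperone Dnajb6 (0.537 and 0.716), and the most opposite Gnb4 (-0.485 and -0.524), Smpdl3b and Stag3. For Srp54b, with 7 and 6 libraries above 0, Tmem248, Zfyve26 and Ubox5 came highest and Arfgap3, Gm5841 and Stoml1 lowest (0.411 to -0.421 over both regions), values that rest on single counts.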

How the data were processed

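RNA of mPFC and vHipp punches was sequenced by the authors as stranded mRNA libraries with paired reads, and the authors deposited raw counts of reads per gene as whole numbers, on GRCm38. The submitters' processing notes name bcl2fastq 2.20.0.422 and CASAVA, and the aligner, the counting program and its treatment of reads with several matches are not given in the sources used here. Groups and mouse numbers came from the sample labels. The copies, the pathway and marker lists, and the tests were chosen with earlier results of these data known.

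Symbols were taken from GENCODE release 21 for 55230 of 55471 genes. Genes with more than 10 counts in total and counts in more than 3 libraries were tested with the quasi-likelihood test of edgeR 4.0.16 (R 4.3.3), TMM factors, no covariate, 2-sided p-values and Benjamini-Hochberg adjustment over all genes tested, with a threshold of 0.05. All 4 groups of a region entered 1 fit, and all libraries the fit between regions. Alternatives were DESeq2 1.42.0, RLE factors, other filters, a covariate of 5 sets of mouse numbers (4 consecutive CSDS with 4 consecutive CTRL mice), and the mouse as a block between regions. The labels give both regions of a mouse the same number, so the number pairs them. Deviations from group means correlated between the regions of a mouse with a median of 0.247 (lowest 0.049, over 0.1 in 36 of 39 mice) and of -0.0065 between different mice. For 31 of the 39 mice the best match was the mouse itself, and for the rest it was another mouse. The edgeR fits were tested on simulated data, in which genes with higher counts were shifted alike in all mice of a group or region. A log2 change of 1 was recovered for 99 of 100 genes for stress under ketamine in the mPFC, with 8 false calls. A log2 change of 0.5 between the regions was recovered for 96 of 100 genes, with 14 false calls. No simulated gene had low and high mice within a group, so this does not cover a gene like Srp54a. Correlations, jackknife errors and windows were computed in Python 3.11.15. The closest pair of libraries in a group differed by 4.655 to 9.256 times the counting variation per gene, and no library was merged with another. Nothing in the labels names litters, cages or housing groups. The authors' model held a term for the social box, in which a housing group lived, to account for batch effects. The main fits here had no such term and treated mice housed together as independent. Each of the 5 sets of mouse numbers mixed CSDS and CTRL mice, so a set is not a housing group. Named genes were the copies, the listed genes, neighbours within 1 Mb of at least 1 CPM with the 5 largest correlations, and those of highest and lowest likeness (5 each for Srp54a, 3 each for the others).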

Additional observations from a re-analysis of the deposited data

Results flagged for a closer look

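Single mice that lay apart from the rest of their group by Dixon's criterion, which chance alone meets in about 1 of 20 groups, are listed here as values. For Srp54a they restate the levels for which the gene was chosen, and for Srp54b 1 to 3 counts among zeros were enough, so their number supports nothing. Mouse 39 was apart for Srp54a in both regions of CTRL saline mice, at 0.31 CPM in the mPFC (6 counts, next lowest 1.86 CPM) and at 0.543 CPM in the vHipp (14 counts, next lowest 1.56 CPM). It is the only low mouse of its group. Srp54b was apart in the mPFC of mouse 31 (CTRL ketamine, 0.0635 CPM, 1 count), of mouse 15 (CSDS saline, 0.0491 CPM, 1 count) and of mouse 6 (CSDS ketamine, 0.157 CPM, 3 counts), and in the vHipp of mouse 36 (CTRL ketamine, 0.0565 CPM, 1 count). These Srp54b values are all within the 3 counts that a count of 0 allows. The sum of the 3 copies was highest in the mPFC of mouse 12 among CSDS ketamine mice, at 23.9 CPM against 20.3 CPM for the next mouse, and mouse 12 also had the highest Srp54a of that group in both regions (4.71 and 3.7 CPM).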

How the results depend on the processing

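The number of genes called stayed within 1.5 times of the value given under all 55 alternatives of 11 comparisons, with 0 calls in each comparison of stress or ketamine. With the mouse as a replicate block, 15709 genes were called between the regions against 15415 without it, and the block changed the call of no Srp54 copy (Srp54a 0.09, SE 0.063, adjusted p = 0.2292 by edgeR). All but 3 of 110 alternative fold changes of Srp54a and Srp54c kept their direction and their side of the threshold. These 3 were the region difference of Srp54c, which turned from -0.0045 to 0.0014 with DESeq2, 0.0024 with RLE factors and 0.0047 with no filter, all far within the SE of 0.036. The number of low Srp54a mice was 10 and 11 under all 6 alternatives.

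Of 61 alternative correlations, 48 moved by less than the jackknife SE. Among the 13 others, Srp54a between the regions was 0.947 as Pearson r of log2 CPM, 0.913 as deviations from group means, 0.709 above and -0.236 below the interval. Srp54a with Srp54c was 0.085 above the interval in the mPFC and -0.345 below it in the vHipp. With Srp54b, Srp54a had 0.007 (Pearson) and -0.029 (deviations) in the mPFC and -0.351 below the interval in the vHipp, Srp54c had -0.18 (deviations) and 0.418 (below the interval) in the vHipp, and Srp54b between the regions had 0.0 (Pearson) and 0.129 (deviations). The cause was not tested. By Pearson r, 1 of the 5 genes most like Srp54a and 3 of its 5 most opposite were shared, and 0 of the 6 for Srp54b. Low Srp54a levels rest on 3 to 14 counts, so depth limits any order among the low mice.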
